A study of Triticum aestivum with 12 samples.

Results

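On the wheat array, 75 of 61179 probe sets read higher in roots of the winter wheat variety Xindong23 than in roots of the variety Xindong20 at both phosphorus levels, with little difference between the phosphorus levels. A probe set is a group of short probes designed against 1 transcript sequence. A member had to exceed Xindong20 by at least 2 on the deposited log2 scale at low phosphorus and again at conventional phosphorus. The lowest of its 6 Xindong23 arrays had to lie above the highest of its 6 Xindong20 arrays, and its phosphorus difference had to stay below 1 in each variety. The values that chose the members are therefore the variety differences and the phosphorus differences, and for the members these are given as a description, with no test. The same rule with the varieties exchanged found 112 probe sets higher in Xindong20.

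The roots came from 4 groups, with 3 arrays each that the series design calls biological replicates. They were Xindong23 at low phosphorus (LP, 0.05 mmol/L), Xindong23 at conventional phosphorus (CP, 1.0 mmol/L), Xindong20 at LP and Xindong20 at CP. Seedlings grew for 14 days in Hoagland solution, in which potassium chloride stood in for part of the potassium phosphate at LP, and then stayed for 7 days in 15% polyethylene glycol (PEG-6000), which holds water back from the roots. Drought was thus common to every group and plants without it were not analysed here. Each genotype is 1 variety, so the comparison is between these 2 varieties and not between classes of wheat.

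Bread wheat carries several related genomes, so that most genes exist as near-identical copies on related chromosomes. Varieties differ in the sequence of these copies, in which copies they carry and in how strongly each copy is transcribed. Array probes were designed from transcript sequences of many wheat lines, and a probe binds less RNA when the variety's own copy differs from the probe. A variety difference in the amount of RNA and a variety difference in how well the probes match cannot be told apart from one probe set. In whole roots, fewer cells of a type and less RNA per cell cannot be told apart either. The number after Ta in a probe set ID names a cluster of expressed sequences, called a stem here. The next number marks a sequence within that cluster. The ending _x_at marks a set with probes that can match other sequences, _s_at a set whose probes are shared by several transcripts, and _a_at a set for transcripts of 1 gene family. None of the 75 members had a gene in the platform annotation, which paired 1273 of the 61179 probe sets with a gene, so the members are named by their IDs and no function is given.

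The conditions entered the choice in steps. A difference of at least 2 was reached by 220 probe sets at LP, by 355 at CP and by 124 at both. Of those 124, 87 also had no overlap between the arrays of the varieties, and over the whole array 406 probe sets (0.664%) had all 6 Xindong23 arrays above all 6 Xindong20 arrays. The limit on the phosphorus difference in both varieties then left 75. In each variety the LP array numbered 3 differed from the other arrays in a control. The ubiquitin control read higher at its 3′ than at its 5′ end by 1.16 (log2) on this array of Xindong23 and by 2.84 on that of Xindong20, and the same difference lay between -0.88 and -0.19 on the other arrays. Without both of these arrays the rule found 102 probe sets, 65 of which were among the 75. Without the third LP array of Xindong20 alone it found 101, including 72 of the 75.

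Of the genes listed as markers of other tissues, the annotation covered 3 of 9 leaf genes and 2 of 12 grain genes. Most of the leaf probe sets were for rbcl alone. In every group, 23 of 31 leaf probe sets and 3 of 4 grain probe sets were dim. A level is called dim here when the group mean lay below the mean of that group's array medians, which lay between 4.24 and 4.33. By this limit, 46.8% of all probe sets were dim in both Xindong20 groups and 48.1% in both Xindong23 groups. The brightest leaf probe set, for rbcl, averaged 8.79 at LP and 10.08 at CP in Xindong23, and 9.78 and 9.92 in Xindong20. The root list was covered by 1 of its 5 genes, DMAS1, a deoxymugineic acid synthase of iron uptake. Its 3 probe sets were dim in no group, and each averaged below that rbcl probe set in every group. Probe sets differ in their probes, so these levels do not rank the amounts of RNA. Of these lists only 1 of the 31 leaf probe sets at CP passed the limma test between the varieties, and none did at LP. Over all probe sets, 2.35% passed at CP and 0.899% at LP, and nothing is read from the counts of the lists. The median variety differences at LP and CP were -0.2 and 0.5 for the root list, -0.05 and -0.09 for the leaf list, and 0.18 and -0.16 for the grain list. A list of pathogen response genes was covered by 2 probe sets of Glc1, with median differences of 0.38 at LP and -0.26 at CP and no call.

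Most members were dim in Xindong20 and none was dim in Xindong23. No member was dim in either Xindong23 group, whereas 45 of the 75 (60%) were dim in both Xindong20 groups, 6 in 1 of them and 24 in neither. Over all probe sets, 46.8% were dim in both Xindong20 groups. The mirror set showed the same arrangement the other way round, with 72 of 112 (64.3%) dim in both Xindong23 groups. The rule itself asks for a large gap, so these shares describe the members and are not a test. The median level over the 75 members was 7.1, 7.52 and 7.72 on the LP arrays of Xindong23 and 7.78, 7.74 and 7.74 on its CP arrays, against 3.58, 3.46 and 3.96 on the LP arrays of Xindong20 and 3.76, 3.88 and 3.87 on its CP arrays.

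**Figure D1:**
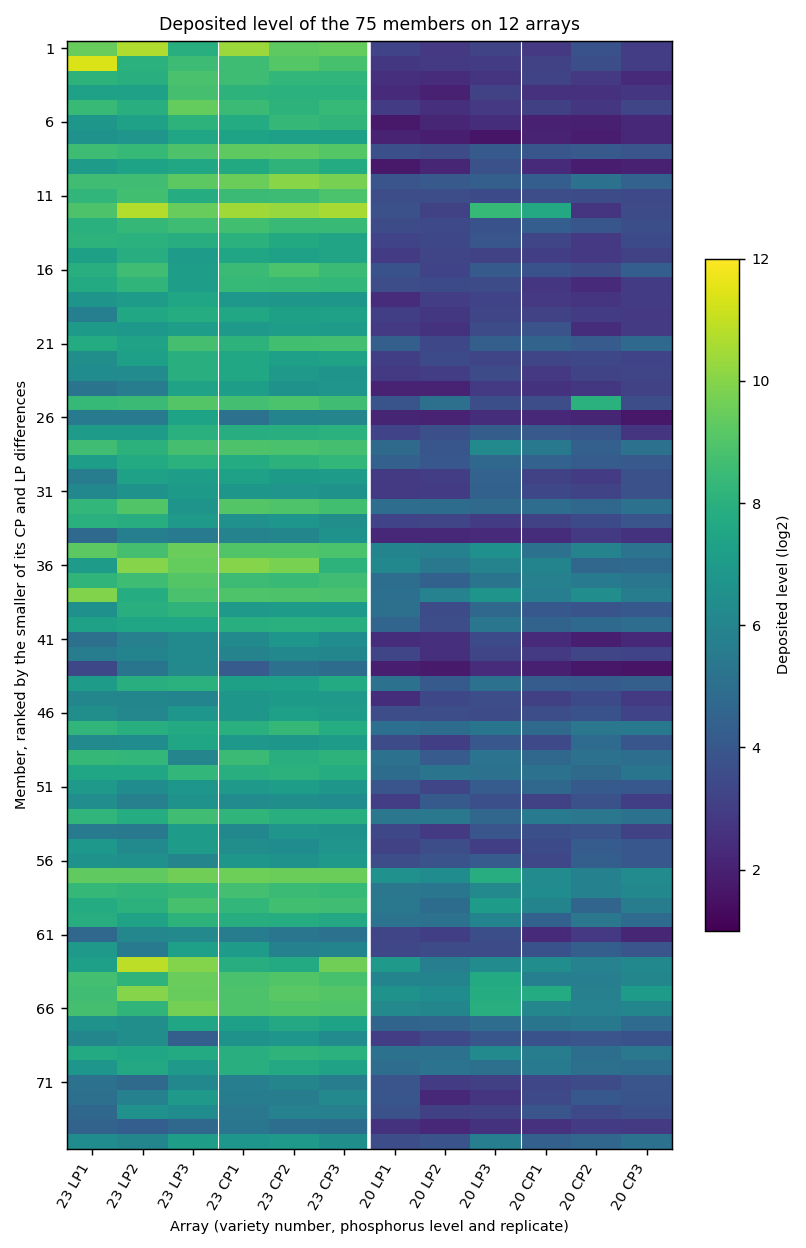
Deposited log2 level of the 75 members (rows, ranked by the smaller of their LP and CP variety differences) on the 12 arrays (columns, Xindong23 left of Xindong20 and LP left of CP in each variety). The Xindong23 columns are lighter in every row. The widest spreads among the Xindong20 columns belong to Ta.7158.1.S1_at, bright on 2 arrays, and Ta.23373.1.S1_at, bright on 1 array. Some other rows reach similar Xindong20 levels, such as Ta.9539.1.A1_at with 7.95 on the LP array numbered 3.

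The difference of means between Xindong23 and Xindong20 had a median of 3.09 at LP, with a range of 2.0 to 6.46, and a median of 3.4 at CP, with a range of 2.0 to 6.47. Over all probe sets the medians were 0.02 at LP and -0.06 at CP. Taking for each member the smaller of its LP and CP differences, 36 members reached 3, 20 reached 4, 7 reached 5 and 1 reached 6. The gap between the lowest Xindong23 array and the highest Xindong20 array had a median of 1.94 and ranged from 0.25 to 4.66. It was at least 1 in 60 members, at least 2 in 35 and at least 4 in 9. Members dim in both Xindong20 groups had median differences of 3.72 at LP and 3.94 at CP, against 2.71 and 2.97 for members dim in neither.

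The largest smaller difference belonged to Ta.1151.1.S1_at. Its levels in Xindong23 were 9.43, 10.67 and 7.91 at LP and 10.33, 9.25 and 9.42 at CP, against 3.21, 2.84 and 3.27 at LP and 2.83, 3.78 and 2.98 at CP in Xindong20. Its mean was 75.2-fold higher in Xindong23 at LP and 88.5-fold higher at CP. The LP value was 47.3-fold without the second LP array of Xindong23 and 123-fold without the third. These folds are 2 raised to the difference of the log2 means, and they compare probe signals. They are imprecise because the Xindong20 level was dim. The Xindong23 arrays spread over several log2 units at LP and still lay far above every Xindong20 array.

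Ta.1912.1.S1_at read 11.39, 8.03 and 8.56 at LP and 8.59, 9.11 and 8.81 at CP in Xindong23, against 2.79, 2.85 and 2.95 at LP and 3.14, 3.65 and 2.98 at CP in Xindong20. It was 88.2-fold higher in Xindong23 at LP and 47.8-fold at CP. The LP value was 43.2-fold without the first LP array of Xindong23 and 138-fold without the second. Without the second array the probe set no longer met the rule. Its Xindong23 mean at LP was then 9.98 against 8.84 at CP, which exceeds the phosphorus limit. One LP array of Xindong23 stood well above its other arrays, and the Xindong20 arrays were all dim. The gap between the varieties was widest for Ta.19312.1.S1_at, which read 8.11, 7.9 and 8.83 at LP and 8.58, 8.3 and 8.25 at CP in Xindong23, against 2.53, 2.4 and 2.69 at LP and 3.24, 2.82 and 2.37 at CP in Xindong20. Its lowest Xindong23 array lay 4.66 above its highest Xindong20 array, and both varieties varied little among their own arrays.

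TaAffx.74284.1.S1_at read 7.3, 7.31 and 8.75 at LP and 8.1, 8.03 and 8.02 at CP in Xindong23, against 2.33, 2.02 and 3.16 at LP and 2.57, 2.58 and 2.72 at CP in Xindong20. In both varieties its LP array numbered 3 was the highest. Ta.8974.1.A1_at read 8.42, 7.92 and 9.4 at LP and 8.51, 8.11 and 8.35 at CP in Xindong23, against 2.92, 2.54 and 2.84 at LP and 3.08, 2.74 and 3.32 at CP in Xindong20. Here the third LP array was the highest in Xindong23 only, and the Xindong20 arrays differed by less than 1 among themselves.

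Ta.11179.1.A1_at read 6.82, 7.28 and 8.12 at LP and 7.78, 8.31 and 8.18 at CP in Xindong23, against 1.76, 2.19 and 2.46 at LP and 1.99, 1.96 and 2.22 at CP in Xindong20. Ta.15947.1.S1_at read 6.66, 6.74 and 7.5 at LP and 7.4, 7.2 and 7.27 at CP in Xindong23, against 2.06, 1.94 and 1.61 at LP and 2.11, 1.85 and 2.25 at CP in Xindong20. Both were dim on average in both Xindong20 groups, and no Xindong20 array came near a Xindong23 array. Next in rank was Ta.21005.1.S1_at, 28.7-fold higher in Xindong23 at LP and 38.4-fold at CP. Ta.27806.1.A1_at followed, 27.3-fold higher at LP and 56.0-fold at CP. The wider CP difference of Ta.27806.1.A1_at went with the third LP array of Xindong20, which read 3.73, where its other Xindong20 arrays read between 1.75 and 2.31. Without that array its LP value was 41.1-fold.

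The other members among the 20 with the largest smaller difference reached at least 4 at both phosphorus levels. They were Ta.21117.1.S1_x_at, TaAffx.78545.1.S1_s_at, Ta.7158.1.S1_at, Ta.22966.3.S1_at, Ta.6952.1.S1_a_at, Ta.14543.2.A1_at, Ta.23681.1.S1_a_at, TaAffx.8150.1.S1_at, TaAffx.1966.1.S1_at, TaAffx.98032.1.S1_at and Ta.7124.1.A1_at. Of all 20, 18 were dim in both Xindong20 groups. Ta.21117.1.S1_x_at was not dim at CP in Xindong20, and Ta.7158.1.S1_at was dim in neither Xindong20 group. Besides Ta.1912.1.S1_at, 4 of the 20 failed the rule with some array left out. Ta.23681.1.S1_a_at failed without the second LP array of Xindong23, Ta.11179.1.A1_at without the third LP array of Xindong23, Ta.21117.1.S1_x_at without that array or the first CP array of Xindong23, and Ta.7158.1.S1_at in 5 of the 12 cases. Each time the phosphorus limit was exceeded, while the variety differences still met the rule.

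Ta.7158.1.S1_at separated the Xindong20 arrays from each other. In Xindong23 it read 8.91, 10.73 and 9.44 at LP and 10.42, 10.3 and 10.57 at CP, against 3.73, 3.18 and 8.35 at LP and 7.64, 2.71 and 3.5 at CP in Xindong20. One Xindong20 array at each phosphorus level read within 2 of the lowest Xindong23 array, and the other 4 were dim. Ta.23373.1.S1_at, singled out after its values were seen, had a similar single array. It read 8.38, 8.5 and 9.07 at LP and 8.72, 8.9 and 8.61 at CP in Xindong23, against 3.85, 5.04 and 3.64 at LP and 3.59, 8.04 and 3.6 at CP in Xindong20. The bright arrays were not the same in the 2 members, since Ta.7158.1.S1_at was low on the second CP array of Xindong20, where Ta.23373.1.S1_at was high.

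TaAffx.8150.1.S1_at differed most in its phosphorus response between the varieties among the 20. It read 7.74, 8.21 and 7.13 at LP and 8.36, 8.31 and 8.27 at CP in Xindong23, against 3.61, 3.46 and 3.55 at LP and 2.74, 2.36 and 2.95 at CP in Xindong20. Its LP minus CP difference was -0.62 in Xindong23 and 0.86 in Xindong20, and the Xindong20 level was dim at both. Among members with wide spread in Xindong23, Ta.28692.2.S1_s_at, also named after its values were seen, read 7.23, 10.92 and 9.94 at LP and 7.86, 7.74 and 9.6 at CP in Xindong23, against 6.91, 5.69 and 6.29 at LP and 6.38, 5.88 and 6.12 at CP in Xindong20. Its lowest Xindong23 array lay only 0.31 above its highest Xindong20 array.

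At the threshold, the 5 members with the smallest qualifying difference had a smaller difference between 2.0 and 2.06. Ta.15247.1.S1_at differed by 2.06 at LP and 2.18 at CP, TaAffx.73741.1.S1_at by 3.0 and 2.05, Ta.22662.1.S1_at by 2.55 and 2.03, TaAffx.12673.1.A1_at by 2.0 and 2.28, and Ta.26268.1.A1_at by 2.13 and 2.0. The 5 closest probe sets that met the other conditions and missed this one were Ta.29634.1.S1_at with a smaller difference of 1.94, Ta.9466.2.S1_a_at with 1.93, Ta.14237.1.S1_at with 1.92, TaAffx.2967.1.S1_at with 1.91 and TaAffx.83980.1.S1_at with 1.89. The values run on without a break across the threshold. TaAffx.2967.1.S1_at, outside at LP, differed by 3.33 at CP.

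**Figure D2:**
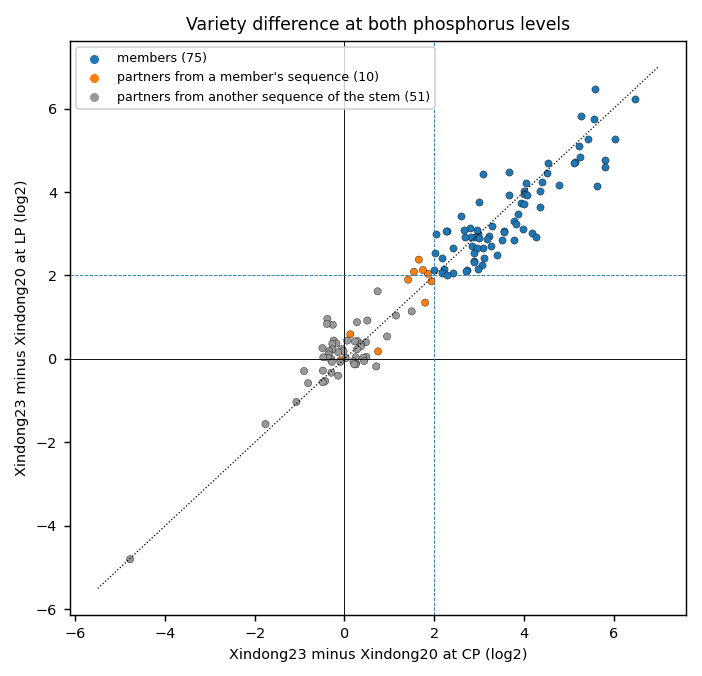
Difference of means, Xindong23 minus Xindong20 (log2), at LP (vertical axis) and CP (horizontal axis) for the 75 members, the 10 partners from a member's sequence and the 51 partners from another sequence of its stem. Dashed lines mark a difference of 2 and the dotted line marks equal differences. Members lie along the line of equal differences up to 6.47 at CP, the 7 called same-sequence partners lie between 1.35 and 2.38 at LP and between 1.42 and 1.94 at CP, and Ta.14571.1.S1_at lies alone at -4.8 (LP) and -4.78 (CP).

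The phosphorus difference of these probe sets stayed below 1, as the rule required. The LP minus CP difference in Xindong23 had a median of -0.23 and ranged from -0.95 to 0.99, and in Xindong20 it had a median of -0.04 and ranged from -0.9 to 0.87. In Xindong23, 56 members (74.7%) were lower at LP than at CP, against 44.9% of all probe sets. In Xindong20, 43 members (57.3%) were lower at LP, against 55.7% of all probe sets. Both differences were below 0 in 34 members and above 0 in 10, against 14596 and 14224 of all 61179 probe sets. The difference was below 0 in Xindong23 and above 0 in Xindong20 in 22 members, against 12859 of all probe sets. It was the other way round in 9 members, against 19500 of all probe sets. The variety difference was therefore smaller at LP than at CP in 51 members (68%), against 43.8% of all probe sets. The size of the phosphorus difference stayed under 0.5 in both varieties in 37 of the 75 members and in 43553 of all 61179 probe sets. The share among the members was thus the smaller one.

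Ta.7167.1.A1_at, chosen after its values were seen, came closest to the phosphorus limit. It read 8.0, 7.84 and 6.9 at LP and 6.56, 6.77 and 6.43 at CP in Xindong23, so that every LP array lay above every CP array, and its difference was 0.99. In Xindong20 it read 3.22, 3.29 and 2.95 at LP and 3.11, 3.49 and 3.88 at CP, a difference of -0.34 on a dim signal. The lowest difference in Xindong23, -0.95, belonged to Ta.21117.1.S1_x_at and to TaAffx.104772.1.S1_at. Ta.21117.1.S1_x_at read 8.63, 8.64 and 9.21 at LP and 9.55, 10.04 and 9.74 at CP in Xindong23, against 3.89, 4.07 and 4.32 at LP and 4.29, 5.14 and 4.48 at CP in Xindong20. Its LP minus CP difference was -0.95 in Xindong23 and -0.54 in Xindong20, with no overlap between the phosphorus levels in Xindong23.

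**Figure D3:**
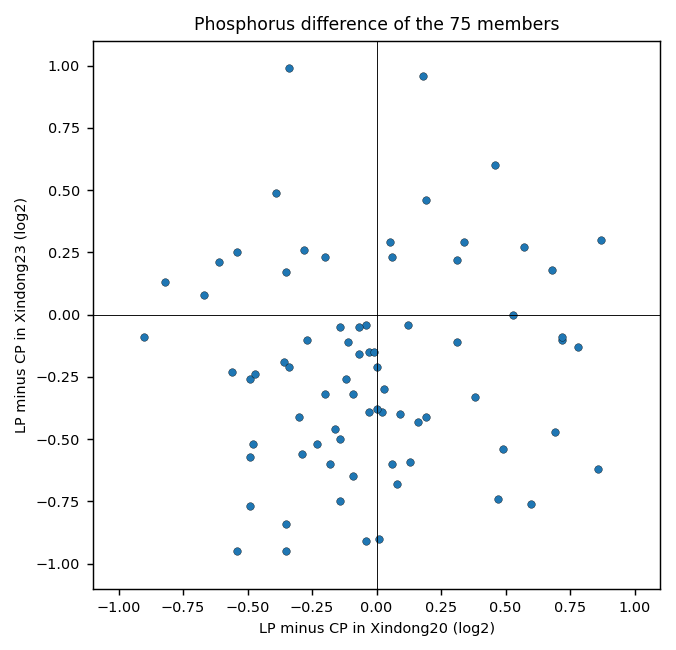
LP minus CP difference of means (log2) of the 75 members in Xindong23 (vertical axis) and Xindong20 (horizontal axis). Most points lie below 0 on the vertical axis (56 of 75), and all lie between -1 and 1 because the rule asked for it.

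The spread of the members lay mostly at LP. Their median SD over 3 arrays was 0.541 at LP and 0.188 at CP in Xindong23, against 0.428 at LP and 0.293 at CP in Xindong20. Over all probe sets the median SDs were 0.262, 0.133, 0.335 and 0.181 in the same order of groups. Of the 75 members, 36 (48%) had the highest of their 6 Xindong23 values on the third LP array, against 33.5% of all probe sets, and 33 (44%) had their highest Xindong20 value on the LP array numbered 3 of that variety, against 36.5%. The first LP array of Xindong23 held the lowest Xindong23 value of 34 members (45.3%), against 19.9% of all probe sets. The part of these arrays in the spreads was not tested. The values varied by more than 2 among the Xindong23 arrays in 12 members and among the Xindong20 arrays in 8.

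In the names of the probe sets, 20 of the 75 members (26.7%) carried the TaAffx prefix, against 48.5% of all probe sets and 24.1% of the mirror set. Plain _at endings made up 81.3% of the members and 79.2% of the array. The share of _x_at sets was 10.7% of the members and 11.1% of the array, that of _s_at sets 5.33% and 4.31%, and that of _a_at sets 2.67% and 5.43%. IDs with the letter A before the final number (as in A1) made up 32.0% of the members and 30.4% of the mirror set, against 17.4% of the array. These shares were not tested.

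The 75 members belonged to 70 stems. In 41 members (54.7%) the member was the only probe set of its stem, against 60.1% of all probe sets. In 5 stems there were 2 members. In 4 of these, Ta.1763, TaAffx.65793, Ta.9539 and TaAffx.98032, the pair was an _at and an _x_at set for 1 sequence, and such a pair is not 2 independent measurements. The Ta.1763 pair showed nearly the same pattern in both sets. Ta.1763.2.S1_at read 9.23, 8.74 and 9.48 at LP and 9.01, 9.02 and 8.87 at CP in Xindong23, against 5.96, 5.83 and 6.51 at LP and 5.12, 5.92 and 5.21 at CP in Xindong20. Ta.1763.2.S1_x_at differed by 2.35 at LP and 2.89 at CP, against 3.05 and 3.55 for Ta.1763.2.S1_at.

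The TaAffx.98032 pair shared 1 low array. TaAffx.98032.1.S1_at read 5.76 on the first LP array of Xindong23 and 7.24 to 7.81 on the other arrays of that variety, and TaAffx.98032.1.S1_x_at read 5.6 there and 6.99 to 7.3 on the others. The Ta.9539 sets differed by 2.15 and 2.24 at LP and by 2.97 and 3.06 at CP. Both had their highest Xindong20 level on the third LP array, 7.95 for Ta.9539.1.A1_at and 7.73 for Ta.9539.1.A1_x_at, which left gaps of 0.25 and 0.43 between the varieties. The TaAffx.65793 sets differed by 2.65 (_at) and 3.14 (_x_at) at LP and by 2.95 and 2.81 at CP. The 2 members of Ta.21117 represent different sequences, and Ta.21117.3.S1_x_at differed by 2.15 at LP and 2.23 at CP, against 4.73 and 5.14 for Ta.21117.1.S1_x_at.

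The remaining probe sets of the same stems, called partners, were not chosen by the rule, and their variety differences were tested. Partners for a member's own sequence can share its probes, so they are not independent of the values that chose the member. They are included in the counts here and counted apart in the next paragraph. There were 61 partners of both kinds in 27 stems, which held 30 members. In limma's moderated test over all 61179 probe sets with Benjamini-Hochberg adjustment, 201 probe sets were higher in Xindong23 at LP (0.329%) and 349 lower (0.57%), together 0.899%. At CP, 891 were higher (1.46%) and 547 lower (0.894%), together 2.35%. The members themselves were called in 63 cases at LP and 69 at CP, and nothing is read from this because the same differences chose them. Among the 61 partners, 8 were higher and 2 lower at LP (16.4%), and 8 were higher and 4 lower at CP (19.7%), with 7 higher and 2 lower at both levels. Leaving out any 1 of the 6 CP arrays brought the CP calls to between 5 and 7. The LP calls came to 4 without the second LP array of Xindong20, 5 without the second LP array of Xindong23 and 6 without the second CP array of Xindong23. The median difference of the partners was 0.19 at LP and 0.06 at CP. A partner had to miss the rule that its stem's member met, so partners with the largest differences are left out by construction.

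Partners from a member's own sequence made up 7 of the 10 calls at LP and 7 of the 12 calls at CP. Of the 10 partners from the same sequence as a member, 7 were higher in Xindong23 at LP and at CP (70%) and none was lower. Their median difference was 1.88 at LP and 1.6 at CP. With 1 array left out, 3 to 6 of them were called higher at LP and 3 to 7 at CP, and none lower. Without the LP arrays numbered 3, 4 were called higher at LP and 8 at CP. Of the 51 partners from another sequence of the stem, 1 was higher and 2 were lower at LP (5.88%), and 1 was higher and 4 were lower at CP (9.8%). Over all probe sets, 0.899% were called at LP and 2.35% at CP. The lower calls at CP included Ta.14543.1.S1_a_at and Ta.14543.1.S1_x_at, which are for 1 sequence and not independent. Ta.14571.1.S1_at, called lower at both levels, met the rule turned round. The median difference of these 51 partners was 0.11 at LP and -0.09 at CP. Same-sequence probe sets can share probes with the member, and how many they share was not examined here. The difference between the 2 kinds of partner was not tested.

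The same-sequence partner with the largest average difference was Ta.22966.3.S1_x_at. It read 7.3, 7.33 and 7.12 at LP and 7.08, 6.87 and 6.74 at CP in Xindong23, against 5.13, 4.9 and 4.59 at LP and 5.08, 5.22 and 5.41 at CP in Xindong20. The varieties did not overlap, and the difference was 2.38 ± 0.17 at LP and 1.66 ± 0.17 at CP (SE from limma, n = 3 arrays per group, adjusted p = 5.47e-05 and 0.000579). Its member Ta.22966.3.S1_at differed by 4.7 and 4.54 and was dim in Xindong20. Ta.22656.2.S1_at read 7.91, 7.37 and 7.95 at LP and 7.87, 7.51 and 7.44 at CP in Xindong23, against 5.56, 5.8 and 5.49 at LP and 5.74, 5.94 and 5.88 at CP in Xindong20. Its difference was 2.13 ± 0.19 at LP and 1.75 ± 0.19 at CP (limma adjusted p = 0.00023 and 0.00084). The calls of both partners held with every array left out in turn.

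Ta.14543.2.A1_x_at differed by 2.09 ± 0.29 at LP and 1.55 ± 0.29 at CP (limma adjusted p = 0.0061 and 0.0246). The LP call held with every array left out in turn and the CP call was lost in 4 of the 12 cases, without the first or the third CP array of either variety, with adjusted p up to 0.106. Ta.28520.1.S1_s_at differed by 1.35 ± 0.24 at LP and 1.8 ± 0.24 at CP (limma adjusted p = 0.0283 and 0.00404). Here the CP call held each time and the LP call was lost in 8 cases, with adjusted p up to 0.098.

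The calls of the other 3 were less stable. Ta.23373.1.S1_x_at differed by 2.04 at LP and 1.86 at CP (limma adjusted p = 0.0406 and 0.0379), and its calls were lost in 10 and 8 of the 12 cases. Its Xindong20 CP arrays read 4.65, 6.67 and 5.49, so it was highest on the same array as its member Ta.23373.1.S1_at. Ta.6633.1.S1_at differed by 1.86 at LP and 1.94 at CP (adjusted p = 0.0338 and 0.0194 by limma), and its calls were lost in 9 and 5 cases. Ta.14739.1.S1_x_at differed by 1.9 at LP and 1.42 at CP (adjusted p = 0.0129 and 0.0379 by limma), and its calls were lost in 2 and 8 cases. Over the 12 cases the differences of these 3 partners stayed between 1.31 and 2.39.

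The 3 same-sequence partners that were not called differed by less than 1. They were Ta.21117.3.S1_at with 0.59 at LP and 0.13 at CP, Ta.7124.1.A1_s_at with 0.18 and 0.75, and Ta.28692.2.S1_at with -0.03 and -0.09, named after their values were seen. The CP difference of Ta.7124.1.A1_s_at (limma adjusted p = 0.364) was called with array weights, in the fit of the 2 CP groups alone and without the LP arrays numbered 3 (limma adjusted p = 0.0213, 0.0208 and 0.0162). Ta.7124.1.A1_s_at averaged 8.35 ± 0.6 at LP and 8.56 ± 0.08 at CP in Xindong23, against 8.17 ± 0.85 at LP and 7.81 ± 0.25 at CP in Xindong20 (SD, n = 3 arrays each). It was dim in no group, while its member Ta.7124.1.A1_at was dim in Xindong20 and 16.2-fold higher in Xindong23 at LP and at CP.

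Stem Ta.14571 held 1 member and 1 probe set of the mirror set, the only stem in both among the 70 and 106 stems. Ta.14571.2.A1_at, the member, read 6.45, 7.2 and 7.96 at LP and 7.55, 7.21 and 7.32 at CP in Xindong23, against 3.02, 3.47 and 3.32 at LP and 3.31, 3.37 and 3.22 at CP in Xindong20. Ta.14571.1.S1_at read 2.88, 3.34 and 4.14 at LP and 3.08, 3.81 and 3.23 at CP in Xindong23, against 8.1, 7.76 and 8.9 at LP and 7.98, 8.27 and 8.22 at CP in Xindong20. The first was dim in both Xindong20 groups and the second in both Xindong23 groups, with no overlap in either. Ta.14571.1.S1_at differed by -4.8 ± 0.36 at LP and -4.78 ± 0.36 at CP (limma adjusted p = 8.67e-05 and 8.7e-05). These calls held with every array left out in turn. The probe set met the rule turned round, which asks for a large difference, so nothing further is read from its calls. The third probe set of the stem, Ta.14571.3.S1_x_at, differed by 0.11 at LP and -0.35 at CP and was not called (limma adjusted p = 1.0 and 0.784).

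Stem Ta.14543 also held differences in both directions. Its member Ta.14543.2.A1_at read 7.24, 7.85 and 7.03 at LP and 7.53, 7.29 and 7.41 at CP in Xindong23, against 2.92, 3.31 and 3.13 at LP and 3.05, 2.82 and 3.15 at CP in Xindong20. Ta.14543.1.S1_a_at, from another sequence, read 9.34, 9.62 and 9.66 at LP and 9.67, 9.55 and 9.39 at CP in Xindong23, against 10.75, 10.65 and 10.31 at LP and 10.72, 10.41 and 10.68 at CP in Xindong20. It differed by -1.03 ± 0.16 at LP and -1.07 ± 0.16 at CP (limma adjusted p = 0.0136 and 0.00826). The LP call was lost without the second LP array of Xindong20 and without the first LP array of Xindong23, and the CP call without the third CP array of Xindong23, with differences of -0.98, -0.93 and -1.0. Ta.14543.1.S1_x_at, for the same sequence, differed by -0.58 at LP and -0.81 at CP, and only the CP difference was called (limma adjusted p = 0.0409, lost in 8 of 12 cases).

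In stem Ta.23373 the member was high in Xindong23, whereas the probe sets of sequence 3 had lower means there, with most of these differences not called. Ta.23373.3.S1_at read 6.73, 6.24 and 7.0 at LP and 6.56, 6.5 and 6.5 at CP in Xindong23, against 7.48, 7.67 and 9.5 at LP and 8.54, 8.22 and 8.08 at CP in Xindong20. Its differences of -1.56 ± 0.44 and -1.76 ± 0.44 did not pass the test (limma adjusted p = 0.216 at LP and 0.0715 at CP), although the arrays did not overlap. The SE rests on all 4 groups, and the SDs in Xindong23 and Xindong20 were 0.39 and 1.12 at LP but 0.03 and 0.24 at CP. Both differences passed without the LP arrays numbered 3. The CP difference also passed in the fit of the 2 CP groups alone (limma adjusted p = 0.000643) and with array weights (0.000286). Without the third LP array of Xindong20 alone it passed as well (limma adjusted p = 0.00131). The LP difference passed in none of these other settings. Ta.23373.3.S1_x_at differed by -0.29 at LP and -0.9 at CP, with a call at CP alone (limma adjusted p = 0.045, lost in 9 of 12 cases). The only other-sequence partners called higher were TaAffx.1966.2.S1_s_at at LP, by 1.62 (limma adjusted p = 0.0318, lost in 10 cases), and Ta.22966.1.S1_x_at at CP, by 1.15 (limma adjusted p = 0.022, lost in 5 cases).

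**Figure D4:**
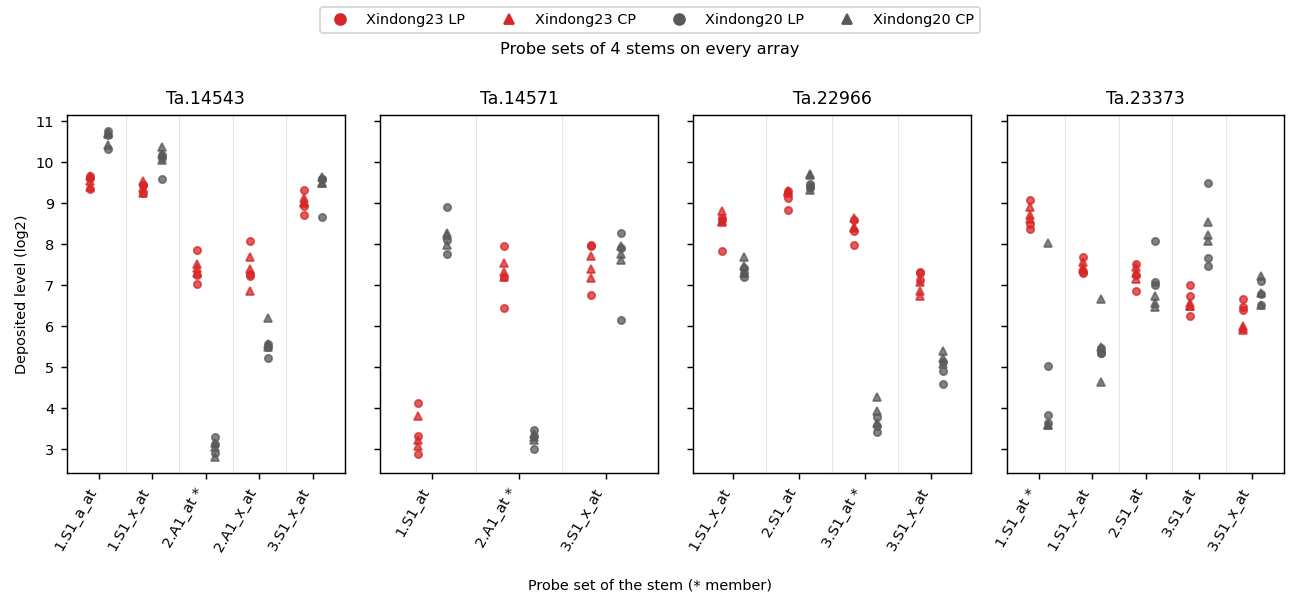
Deposited log2 level of every probe set of 4 stems on every array, with Xindong23 (red) left of Xindong20 (grey), LP as circles and CP as triangles, and members marked by an asterisk. In Ta.14571 the probe sets of sequences 1 and 2 are high in opposite varieties. In Ta.14543 and Ta.22966 the _x_at set of the member's sequence is also higher in Xindong23 and less so than the member.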

How the data were processed

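Root RNA of 12 samples was measured on 12 Affymetrix wheat arrays. The authors deposited 1 table of log2 values per probe set. RMA and Affymetrix Expression Console 1.4.1 appear among the tools of the submitters' processing notes, with no step given for either. The base of the logarithm was inferred from how far the values extend. It is not given in the sources used here, and neither are scan order, probe set library and genome build. No column was left out (0 columns not used). Precision is limited by the number of arrays.

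The rule was applied to the deposited values of 61179 probe sets, after 111 controls were left out. The members, lists and tests were chosen with earlier results of these data known. The root, leaf, grain and pathogen response lists were matched through the platform annotation. All 12 arrays entered 1 linear model of the 4 group means in limma 3.58.1 in R 4.3.3 (8 residual and 2.28 prior degrees of freedom), two-sided, with adjusted p under 0.05 by Benjamini-Hochberg over all probe sets as a call. The fit was tested on simulated data. Named probe sets were the 20 members with the largest smaller difference and the 5 on each side of the threshold. Members of stems with 2 members were also named. So were the 5 partners with the highest and the 5 with the lowest average difference. Other probe sets, such as the other called partners, were named after their values were seen. Alternatives were median centring, quantile normalization, trended variance, array weights, a replicate block, 2-group fits, a filter on dim probe sets, leaving out arrays, and other thresholds.

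Deviations of same-numbered arrays from their group means correlated across the varieties between -0.137 and 0.756 at LP and between -0.212 and -0.083 at CP. For differently numbered arrays the range was -0.745 to 0.623 at LP and -0.09 to 0.17 at CP. The value of 0.756 came from the LP arrays numbered 3, which also stood apart in the ubiquitin control. Same-numbered arrays did not correlate positively throughout, and the replicate numbers were not taken to pair the samples. A shared origin of the LP arrays numbered 3 was not tested.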

Additional observations from a re-analysis of the deposited data

How the results depend on the processing

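The 75 members became 76 after median centring and 74 after quantile normalization (72 shared), 36 with a variety threshold of 3 and 37 with a phosphorus limit of 0.5. Leaving out 1 array at a time gave 67 to 101, and 43 of the 75 were found in all 12 cases. At LP, 10 partners were called, against 6 with the replicate block, 4 with 2-group fits and 4 to 9 with 1 array left out. At CP, 12 were called, against 24 with array weights, 20 with 2-group fits, 20 without both LP arrays numbered 3, 7 when only same-sequence partners were counted, and 5 to 17 with 1 array left out. The replicate block gave 11 at CP. Higher and lower partner calls at CP were 9 and 2 after median centring and 5 and 4 after quantile normalization, against 8 and 4. Of 22 partner calls, 7 held in every setting: Ta.22966.3.S1_x_at, Ta.22656.2.S1_at and Ta.14571.1.S1_at at both levels and Ta.28520.1.S1_s_at at CP. Ta.14571.1.S1_at belongs to the mirror set, whose rule asked for such a difference.

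Over all probe sets, the 550 calls at LP became 1177, 127 and 843 with array weights, 2-group fits and without both of those LP arrays, and 382 to 876 with 1 array left out. The 1438 calls at CP became 945 with trended variance, 12120 with array weights, 8733 with 2-group fits, 6221 without both of those LP arrays and 403 to 3306 with 1 array left out. At CP, 1128 were higher and 425 lower after median centring, and 601 higher and 582 lower after quantile normalization, against 891 and 547. Of the uncalled partners, Ta.28692.2.S1_at changed sign at LP to 0.0427 after quantile normalization. With 1 array left out it lay between -1.0481 and 0.7514 at LP and between -0.1749 and 0.0567 at CP. Ta.7124.1.A1_s_at lay between -0.158 and 0.6728 at LP with 1 array left out, and its CP difference was called with array weights (0.6984), in 2-group fits and without both LP arrays numbered 3 (0.7493 each). The causes were not tested. With 3 arrays per group and unknown background, the levels of dim probe sets and the folds that rest on them are imprecise.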
